A study of Xenopus laevis with 4 samples.

Results

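The miR-17, miR-20, miR-93 and miR-106 seed family was examined in the small RNA of embryonic skin explants of the frog Xenopus laevis. Its 6 rows were taken by name from a deposited table of 98 miRNAs: xtr-miR-17-5p, xtr-miR-20a, xtr-miR-20b, xtr-miR-93a, xtr-miR-93b and xtr-miR-106. The prefix xtr marks Xenopus tropicalis, the related frog whose miRNA names were used for the table. The explants were taken at tailbud stage 26, when the embryonic skin is ciliated, and at gastrula stage 11.5, when it is not. Each stage has 2 libraries, a and b, given as technical replicates of 1 pool of 50 explants. However, the source names of the b libraries give slightly later stages than their stage labels, which the groups follow. If those names hold, libraries a and b of a stage also differ in age. No treatment or genetic change is named for either stage, and both stages come from embryos fertilized in vitro. By the replicate labels, the p-values below measure the spread between libraries of a pool and not between embryos or pools. Between the stages, age and ciliation cannot be told apart.

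A miRNA is a short RNA that guides an Argonaute protein to messenger RNAs, mostly by pairing of its seed, bases 2 to 8 counted from the 5′ end. Messages with a matching site are then repressed or degraded. In mammals the miR-17 family is transcribed from the miR-17/miR-92, miR-106a/miR-363 and miR-106b/miR-25 clusters, is high in dividing and embryonic cells, and is known for repressing cell cycle inhibitors such as p21. In Xenopus the abundant early embryonic miR-427, the counterpart of zebrafish miR-430, is known for clearing maternal messages.

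The sequences below, as listed in the deposited table, are shown because the seed defines the family and because near-identity between rows bears on how reads can be assigned. Capitals mark bases 2 to 8.
xtr-miR-17-5p: cAAAGTGCttacagtgcaggtagt
xtr-miR-20a: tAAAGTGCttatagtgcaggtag
xtr-miR-20b: cAAAGTGCtcatagtgcaggtag
xtr-miR-106: aAAAGTGCttatagtgcaggtaga
xtr-miR-93a: aAAGTGCTgttcgtgcaggtag
xtr-miR-93b: aAGTGCTGttcgtgcaggtag
xtr-miR-427: gAAAGTGCtttctgttttgggcg

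Only 4 of the 6 rows, miR-17-5p, miR-20a, miR-20b and miR-106, carried AAAGTGC at bases 2 to 8 as listed. In miR-93a the same 7 bases stood at bases 1 to 7. miR-93b began a base later still and held only AAGTGC, at its 5′ end. All 21 bases of miR-93b lie inside the 22 bases of miR-93a. Their reads were nearly equal in every library, at 567 against 570 and 243 against 244 (miR-93a against miR-93b) in stage 26 libraries a and b, and 78 against 79 and 379 against 379 in those of stage 11.5. They were counted once, with the reads of miR-93a, in the family's sums and in the totals its shares were set against. Deposited CPM, the library read totals, the percentages of miR-427 and of other lists, and the fits kept both rows. Outside the family, miR-427 was the only row of the table with AAAGTGC at bases 2 to 8.

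Counted from the first A of AAGTGC, miR-20a differed from miR-17-5p over 21 bases by the single substitution C10T. miR-20b differed from miR-17-5p by T8C and C10T, and miR-93a by T8G, A9T, C10T and A11C. miR-106 matched miR-20a at all 21 bases compared, and the pair shared an unbroken run of 22 bases. As listed they differ only at the first base and in length. Which aligner was used, and with how many mismatches, is not given in the sources used here. A read ending inside that run could belong to either if it lacked the first base or a mismatch there was allowed.

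The deposited values are CPM (reads of a miRNA per 1000000 reads over the listed miRNAs). With both nested rows counted, the libraries held 46892 and 41878 miRNA reads at stage 26 (a and b), and 22668 and 30406 at stage 11.5. Every deposited value was a whole multiple of the value of 1 read. miR-427 took 7.57% and 6.95% of reads in the stage 26 libraries, against 87.0% and 81.7% in those of stage 11.5. Without miR-427 and with the nested pair once, 42774 and 38722 reads were left at stage 26, against 2858 and 5195 at stage 11.5, so values of stage 11.5 rest on far fewer reads. As for the tissue label, the epithelial list (miR-200a, miR-200b and miR-429) took 8.68% and 9.39% of reads at stage 26, against 0.825% and 1.003% at stage 11.5. In the epidermal list, miR-203 was present in every library, while miR-205a had 1 read at stage 26 and none at stage 11.5. The multiciliated list (miR-34a, miR-34b and miR-449, known from multiciliated cells) took 46.0% and 47.0% of reads at stage 26, against 4.02% and 4.87% at stage 11.5. It therefore fills much of the total at stage 26 once miR-427 is left out. The muscle, blood and vessel, and endoderm lists each took at most 0.160% of reads in any library. The blood and vessel list took 0.0277% and 0.0382% at stage 26, against 0.101% and 0.128% at stage 11.5. The neural list took 1.13% and 1.28% at stage 26, against 0.0529% and 0.0296% at stage 11.5. All these shares are of totals that include miR-427, which leaves little room for other rows at stage 11.5. In such bulk samples fewer cells of a type and less RNA per cell cannot be told apart. The parts of the miR-427 drop and of these lists in the family's values were not tested.

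Reads of rows listed with AAAGTGC at bases 2 to 8 made up less of the stage 26 libraries. The family rows among these held a larger share of them. The seed is that of the listed sequences, and where the reads themselves began was not examined. These reads took 19.6% and 17.4% of all reads in stage 26 libraries a and b, against 90.0% and 87.4% in those of stage 11.5. Within them, miR-17-5p, miR-20a, miR-20b and miR-106 together held 60.8% and 59.8% at stage 26, against 2.90% and 5.42% at stage 11.5. The rest was miR-427, with 39.2% and 40.2% at stage 26, against 97.1% and 94.6% at stage 11.5. The stages did not overlap in any of these shares. The mean share of these family rows, without the miR-93 rows, was 60.3% ± 0.744 at stage 26 and 4.16% ± 1.78 at stage 11.5 (SD, n = 2 each). The exact two-sided permutation p was 0.333, the smallest that 2 libraries a stage allow. The fall of miR-427 alone can move this share, so it does not show how the family's own level changed.

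The direction of the family's share turned with the total it was set against. Of all miRNA reads, the family took 13.1% (95% exact binomial interval 12.8% to 13.4%) and 11.0% (10.7% to 11.3%) in stage 26 libraries a and b. In libraries a and b of stage 11.5 it took 2.96% (2.74% to 3.19%) and 6.005% (5.74% to 6.28%). The mean share of all reads was 12.1% ± 1.51 at stage 26 and 4.48% ± 2.15 at stage 11.5 (SD, n = 2 each), a ratio of 2.69. The intervals cover only the counting error of reads within a library. The files give no molecular identifiers to tell reads from molecules, so the intervals may be too narrow for molecules. At both stages the 2 libraries' intervals were apart, so libraries of a stage differed by more than the counting error of reads.

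With miR-427 left out of the total, the family took 14.2% (13.9% to 14.6%) and 11.8% (11.5% to 12.1%) in stage 26 libraries a and b. In libraries a and b of stage 11.5 it took 23.4% (21.8% to 24.97%) and 34.7% (33.4% to 36.02%). The mean share was 13.0% ± 1.70 at stage 26 and 29.0% ± 8.01 at stage 11.5 (SD, n = 2 each), a ratio of 0.448. The difference of -16.0 percentage points was -10.4 with stage 11.5 library b dropped and -21.7 with its library a dropped. The stages did not overlap in either total, and the exact two-sided permutation p was 0.333 in both, the smallest this design allows. Leaving out miR-428, miR-302 and miR-367 as well, early embryonic miRNAs of which miR-428 and miR-302 hold AAGTGC near their 5′ end, moved the shares little, to 13.1% ± 1.72 at stage 26 and 29.5% ± 8.19 at stage 11.5 (SD, n = 2 each).

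**Figure D1:**
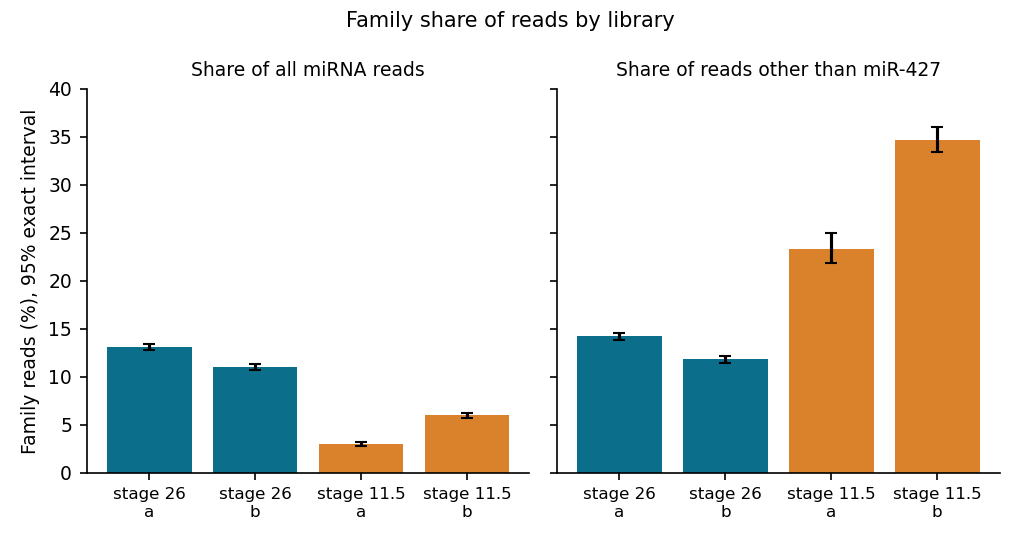
Family reads as a percentage of all miRNA reads (left) and of reads other than miR-427 (right) in each library, with miR-93a and miR-93b counted once. Bars are single libraries and error bars are 95% exact binomial intervals. Both stage 26 bars stand above both stage 11.5 bars on the left, with means of 12.1% and 4.48%, and below them on the right, with means of 13.0% and 29.0%.

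The rows fell into a set whose stages did not overlap in CPM and a set in which libraries of a stage lay farther apart than the stage means. miR-17-5p, the most abundant row and the founding member of the miR-17/miR-92 cluster, had 67559 and 61393 CPM in stage 26 libraries a and b, against 17602 and 17168 CPM in those of stage 11.5. Its libraries lay close together at each stage, and its mean CPM at stage 26 was 3.71 times that at stage 11.5. miR-106, whose mammalian counterpart opens the miR-106a/miR-363 cluster, had 17764 and 15784 CPM at stage 26, against 3265 and 4637 CPM at stage 11.5, a ratio of means of 4.25. miR-20a, a miR-17/miR-92 cluster member, had 10023 and 11820 CPM at stage 26, against 1323 and 2927 CPM at stage 11.5, a ratio of means of 5.14. The stages did not overlap for miR-17-5p, miR-106 and miR-20a, although the stage 11.5 values of miR-20a rest on 30 and 89 reads and differed 2.21-fold. A rise in deposited CPM was common, since 43 of the 52 miRNAs tested below had a positive fold change. The share of tested miRNAs without overlap was not counted, so the lack of overlap cannot be called particular to these rows.

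The other rows overlapped between stages. miR-20b, a member of the mammalian miR-106a/miR-363 cluster, had 22243 and 14423 CPM in stage 26 libraries a and b, against 3838 and 22101 CPM in those of stage 11.5. Library b of stage 11.5 thus lay level with library a of stage 26, and the stage 11.5 libraries differed 5.76-fold. miR-93a, a member of the mammalian miR-106b/miR-25 cluster, had 12092 and 5803 CPM at stage 26, against 3441 and 12465 CPM at stage 11.5. miR-93b, its nested row, had 12156 and 5826 CPM at stage 26, against 3485 and 12465 CPM at stage 11.5. Library b was the lower one at stage 26 and the higher one at stage 11.5 for miR-20b and for both miR-93 rows.

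**Figure D2:**
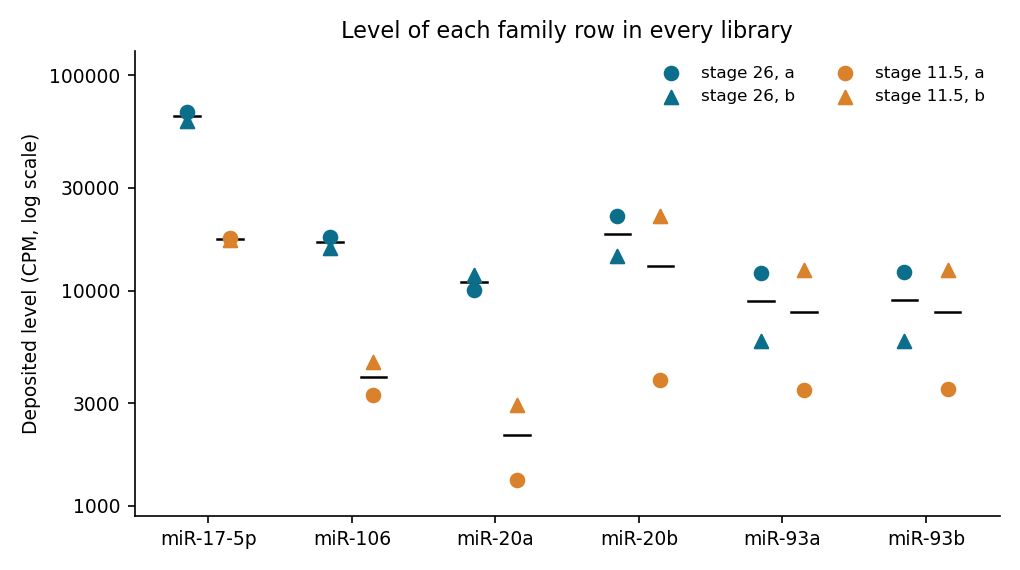
Deposited level of each family row (CPM, log scale) in every library, with stage 26 left of stage 11.5, circles for library a, triangles for library b and a short line for the mean of a stage. miR-17-5p, miR-106 and miR-20a do not overlap between stages, while miR-20b, miR-93a and miR-93b do. Of the 52 tested miRNAs, 43 had a positive fold change in deposited CPM, and the share without overlap was not counted.

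In order of mean CPM at stage 26, miR-17-5p (64476 ± 4361) came first, followed by miR-20b (18333 ± 5529), miR-106 (16774 ± 1400), miR-20a (10922 ± 1271) and miR-93a (8947 ± 4447; SD, n = 2 each). miR-20b and miR-106 lay within their spread, as did miR-20a and miR-93a. At stage 11.5 the means were 17385 ± 307 for miR-17-5p, 12969 ± 12914 for miR-20b, 7953 ± 6381 for miR-93a, 3951 ± 971 for miR-106 and 2125 ± 1134 CPM for miR-20a (SD, n = 2 each). There miR-20b could not be placed, since it was far below miR-17-5p in library a and above it in library b. By level within a library, miR-17-5p had rank 4 and 6 of all rows at stage 26 (a and b), against rank 3 and 4 at stage 11.5.

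Stage differences were tested with limma over all 52 miRNAs that passed the filter on low values, all 6 family rows among them. After scaling by the trimmed mean of M values (TMM), none of the 6 passed an adjusted p of 0.05 in either direction, against 38.5% of all tested miRNAs called higher and 21.2% called lower at stage 26. None of the 6 had an unadjusted p under 0.05 either. The log2 fold change on the log2(CPM + 50) scale was -0.09 for miR-17-5p (95% interval -0.63 to 0.45, limma adjusted p = 0.725). It was 0.12 for miR-106 (-0.81 to 1.05, limma adjusted p = 0.769) and 0.48 for miR-20a (-0.81 to 1.77, limma adjusted p = 0.454). It was -1.02 for miR-20b (-3.32 to 1.28, limma adjusted p = 0.387) and -1.61 for miR-93a (-3.58 to 0.35, limma adjusted p = 0.129), with -1.62 for miR-93b. Every interval reached changes in both directions, and those of miR-20a, miR-20b and the miR-93 rows span several-fold changes. These fits therefore do not show that the levels of any row were alike. With limma's voom weights on the recovered reads, an alternative added after the data were seen, miR-93a and miR-93b passed as lower at stage 26 (log2 -1.67 and -1.68, limma adjusted p = 0.0482 for both). In that fit 13 of the 52 tested miRNAs were called lower. After TMM scaling with library b of stage 11.5 dropped, the log2 fold change of miR-20a was 1.0, while with library a dropped it was 0.023. The result for miR-20a thus depended on which stage 11.5 library was kept. Each of these fits leaves a single library at stage 11.5. The fold change of miR-93a ranged from -2.43 with library a of stage 11.5 dropped to -0.74 with library b dropped.

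The TMM factors lowered every fold change of stage 26 over stage 11.5 by a log2 shift of 1.98 relative to deposited CPM, before the pseudocount. In deposited CPM, 3 of the 6 rows were called higher and none lower, against 71.2% of all tested miRNAs called higher and 11.5% called lower. The median log2 fold change over the family was 1.42, and 1.89 with the nested rows once, against 2.27 over all tested miRNAs. The 3 were miR-17-5p (log2 1.89, SE 0.227, limma adjusted p = 0.00052), miR-106 (log2 2.09, SE 0.413, limma adjusted p = 0.00421) and miR-20a (log2 2.43, SE 0.528, limma adjusted p = 0.00603). The call of miR-17-5p held with any single library left out (log2 1.82 to 1.96, limma adjusted p = 0.00127 to 0.0444). That of miR-106 was lost with stage 26 library a dropped (log2 2.01, limma adjusted p = 0.0980) or its library b (log2 2.18, limma adjusted p = 0.0780). That of miR-20a was lost likewise (log2 2.55, limma adjusted p = 0.131 and log2 2.32, limma adjusted p = 0.145), so the folds changed little while the calls did not hold. miR-20b (log2 0.95, limma adjusted p = 0.344) and miR-93a (log2 0.35, limma adjusted p = 0.667) did not pass. Without library b of stage 11.5 miR-20b passed (log2 2.21, limma adjusted p = 0.0101).

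With miR-427 left out of the total, 2 of the 6 rows were called lower and none higher, against 27.5% of the 51 miRNAs tested, the family included, in each direction. The median log2 fold change was -1.16 over the 6 rows and -0.70 with the nested rows once, against -0.12 over all tested miRNAs. The 2 calls were the nested rows miR-93a and miR-93b (log2 -2.23 and -2.23, limma adjusted p = 0.0408 for both). Both calls were lost with stage 26 library a dropped (miR-93a log2 -2.76, limma adjusted p = 0.216), with its library b dropped (log2 -1.70, limma adjusted p = 0.338) and with stage 11.5 library b dropped (log2 -1.55, limma adjusted p = 0.155). With stage 11.5 library a dropped they held (miR-93a log2 -2.90, limma adjusted p = 0.0494). miR-17-5p had a log2 fold change of -0.70 (limma adjusted p = 0.0697), miR-106 of -0.48 (0.198), miR-20a of -0.12 (0.800) and miR-20b of -1.63 (0.140, all limma adjusted p). Without library b of stage 11.5 miR-17-5p passed as lower (log2 -0.97, limma adjusted p = 0.0139). miR-20b did so when library a of that stage was dropped (log2 -2.64, limma adjusted p = 0.0271), against log2 -0.62 (limma adjusted p = 0.296) with library b dropped.

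**Figure D3:**
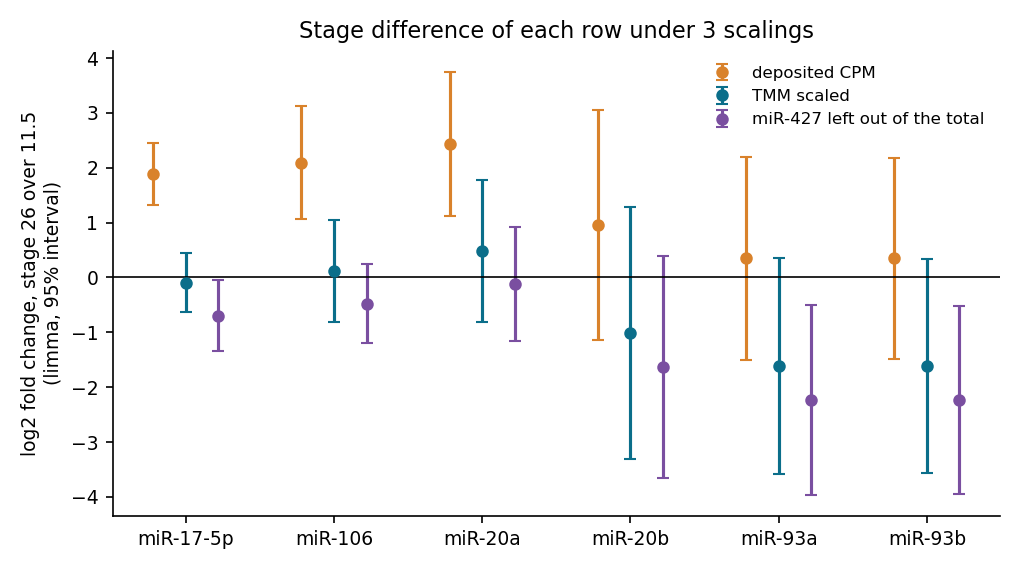
log2 fold change of each family row, stage 26 over stage 11.5, with its 95% limma interval, in deposited CPM, after TMM scaling and with miR-427 left out of the total. All 6 rows lie above 0 in deposited CPM and all 6 below 0 with miR-427 left out, and the rows keep nearly the same distances from each other under the 3 scalings.

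The family's make-up does not depend on the total or on any scaling. miR-17-5p supplied 52.1% and 56.2% of family reads in stage 26 libraries a and b, against 59.7% and 29.0% in those of stage 11.5. miR-20b supplied 17.2% and 13.2% at stage 26, against 13.0% and 37.3% at stage 11.5. miR-93a supplied 9.32% and 5.31% at stage 26, against 11.7% and 21.0% at stage 11.5. In library b of stage 11.5 miR-20b and miR-93a together thus made up 58.3% of the family, against 18.5% to 26.5% in the other 3 libraries. miR-20a took 7.73% and 10.8% of family reads at stage 26, against 4.49% and 4.94% at stage 11.5. miR-106 took 13.7% and 14.5% at stage 26, against 11.1% and 7.82% at stage 11.5. The values of these shares did not overlap between stages for miR-20a, miR-106 and miR-93a. However, the exact binomial intervals of stage 26 library a and stage 11.5 library a overlapped for miR-106 and miR-93a. They were 12.8% to 14.6% against 8.80% to 13.7% for miR-106, and 8.60% to 10.1% against 9.34% to 14.4% for miR-93a. For miR-106 the interval of stage 26 library b, 13.4% to 15.5%, also overlapped that of stage 11.5 library a. The intervals of miR-20a were apart between stages. Shares also sum to the whole, so they are not independent of each other.

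The make-up was also taken among miR-17-5p, miR-106 and miR-20a alone, the rows left once those with the widest library differences were set aside. miR-17-5p held 70.9% and 69.0% of their summed reads at stage 26, against 79.3% and 69.4% at stage 11.5. miR-106 held 18.6% and 17.7% at stage 26, against 14.7% and 18.8% at stage 11.5. miR-20a held 10.5% and 13.3% at stage 26, against 5.96% and 11.8% at stage 11.5. Library a of stage 11.5 was the one with the most miR-17-5p and the least of the others. These 3 rows together took 9.30% ± 0.495 of all reads at stage 26 and 2.37% ± 0.196 at stage 11.5 (SD, n = 2 each). With miR-427 left out of the total they took 10.04% ± 0.585 at stage 26 and 16.04% ± 2.21 at stage 11.5. The rows were chosen by differences between these same libraries, so these SDs are not an independent measure of spread.

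**Figure D4:**
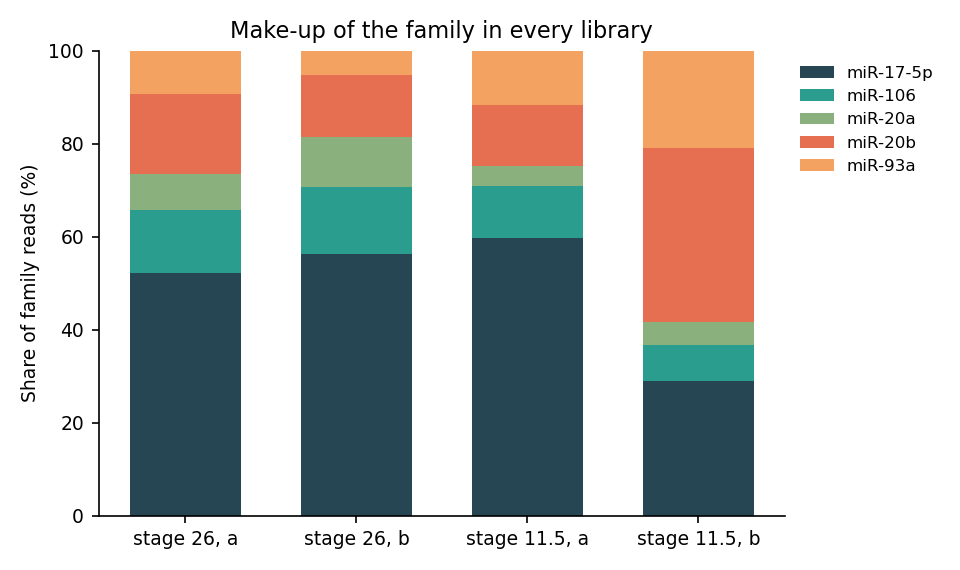
Make-up of the family in each library, as the share of family reads (%) from each row, with miR-93a and miR-93b counted once. miR-17-5p gives over 50% in all libraries but b of stage 11.5, where it gives 29.0% and miR-20b 37.3%.

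Ratios to miR-17-5p within a library were compared for 4 rows. The log2 ratio of miR-106 to miR-17-5p was -1.93 and -1.96 in stage 26 libraries a and b, against -2.43 and -1.89 in those of stage 11.5. That of miR-20a was -2.75 and -2.38 at stage 26, against -3.73 and -2.55 at stage 11.5. That of miR-20b was -1.60 and -2.09 at stage 26, against -2.20 and 0.36 at stage 11.5, where library b alone held more miR-20b than miR-17-5p. That of miR-93a was -2.48 and -3.40 at stage 26, against -2.35 and -0.46 at stage 11.5, and did not overlap between stages (mean difference -1.53). However, the library a values of both stages lay close together, and that of stage 11.5 rests on 78 reads of miR-93a. The exact two-sided permutation p was 0.333 for miR-93a, 0.667 for miR-20a and 1.0 for miR-106 and miR-20b, and every value adjusted over the 4 ratios was 1.0. With 2 libraries a stage none could pass.

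Differences between libraries of a stage were larger for some family rows than for most other miRNAs. At stage 26, the difference of log2(CPM + 50), library a minus b, was 1.05 for both miR-93 rows, the 2 largest in size among the 52 tested miRNAs, and 0.62 for miR-20b, at rank 7. At stage 11.5, library b minus a gave 2.51 for miR-20b, 1.84 for miR-93a and 1.82 for miR-93b, the 3 largest in size. The nested miR-93 rows hold nearly the same reads, so they amount to a single measurement in both rankings. For miR-20a the differences were -0.24 at stage 26 (a minus b) and 1.12 at stage 11.5 (b minus a). For miR-106 they were 0.17 at stage 26 and 0.50 at stage 11.5. miR-17-5p was among the steadier rows, with 0.14 at stage 26 and -0.04 at stage 11.5. Over all tested miRNAs the median was -0.05 at stage 26, where only the 2 nested miR-93 rows exceeded 1 in size. It was 0.0 at stage 11.5, where 10 rows did, both miR-93 rows among them. The largest difference of a row outside the family was 0.97 for miR-221 at stage 26 and 1.74 for miR-92a at stage 11.5. The source names of the b libraries give slightly later stages than their stage labels. The part of this in the differences was not tested.

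**Figure D5:**
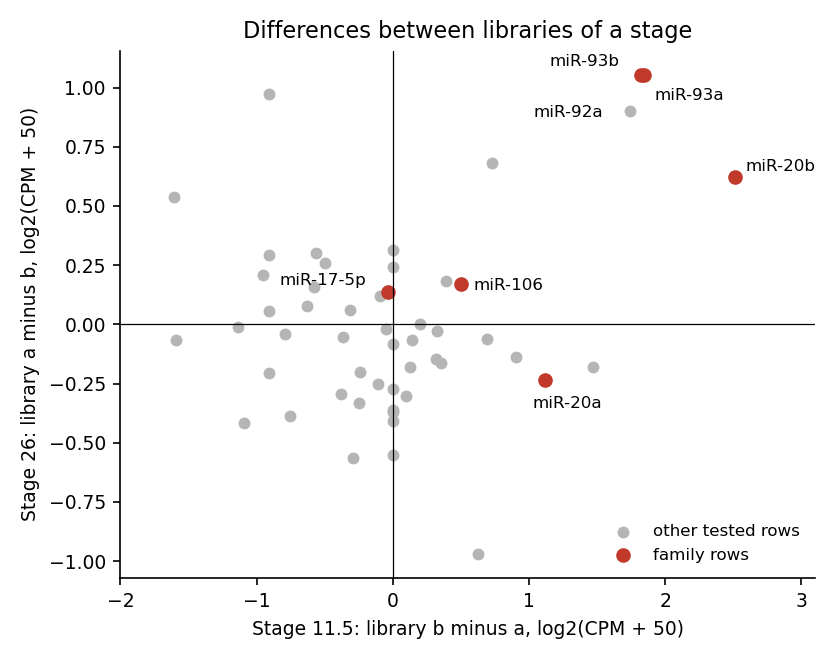
Differences between libraries of a stage on the log2(CPM + 50) scale for the 52 tested miRNAs, with stage 26 (library a minus b) on the vertical axis and stage 11.5 (library b minus a) on the horizontal axis. miR-20b, miR-93a and miR-93b lie at the upper right with miR-92a, which is no family row, while miR-17-5p lies near the centre.

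The rows outside the family most like each member were sought by the root mean square difference of log2(CPM + 50) profiles over the 4 libraries, each centred on its own mean. miR-18a, which differs from the family in its seed, was nearest to miR-17-5p (0.164) and to miR-106 (0.146). For miR-17-5p, miR-130a (0.170) and miR-34a (0.170) followed closely, and for miR-106, miR-181b (0.350) and miR-30d (0.368) came next. For miR-20a the nearest was miR-30d (0.179), followed by miR-181b (0.373) and miR-18a (0.373). For miR-20b (0.311), miR-93a (0.199) and miR-93b (0.199) it was miR-92a. In mammals a copy of miR-92a lies in the miR-17/miR-92 cluster, and miR-93 lies in the miR-106b/miR-25 cluster. Genomic positions were not used here, so whether miR-92a shares a cluster with any of these rows was not examined. The level of miR-92a was 5267 and 2794 CPM in stage 26 libraries a and b, against 1235 and 4243 CPM in those of stage 11.5. The next rows lay much farther off, with miR-30d (0.771) and miR-428 (0.781) for miR-20b, and miR-19a (0.741 and 0.736) and miR-428 (0.7501 and 0.747) for miR-93a and miR-93b. The ratio of miR-93a to miR-92a reads was 2.30 and 2.08 at stage 26, against 2.79 and 2.94 at stage 11.5. The distances describe 4 libraries of 2 stages and carry no test.

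The partners of the family in its clusters (rows of miR-18, miR-19, miR-25, miR-92 and miR-363) gave 10 rows, of which 6 were tested. After TMM scaling none was called higher, miR-363-3p and miR-19a were called lower and the other 4 did not pass, against 38.5% of all tested miRNAs called higher and 21.2% lower. In deposited CPM 3 were called higher (miR-18a, miR-18b and miR-19b) and none lower, against 71.2% and 11.5% of all tested miRNAs. With miR-427 left out of the total 3 were called lower (miR-18a, miR-19a and miR-363-3p) and none higher, against 27.5% of all tested miRNAs in each direction. The partner with the most reads was miR-18a, a member of the miR-17/miR-92 cluster between miR-17 and miR-19a in mammals, with 54658 and 60437 CPM at stage 26, against 13279 and 16576 CPM at stage 11.5. Reads of miR-17-5p over those of miR-18a gave 1.24 and 1.02 at stage 26, against 1.33 and 1.04 at stage 11.5, so this ratio differed between libraries of a stage by more than between stages. The whole family had 1.91 and 1.54 times the reads of its partners at stage 26, against 1.62 and 2.54 times at stage 11.5. The ratio of miR-20b to miR-18b, which share a cluster in mammals, was 8.34 and 5.25 at stage 26, against 5.8 and 61.1 at stage 11.5, where miR-18b had 15 and 11 reads. miR-25, which lies beside miR-93 in the mammalian miR-106b/miR-25 cluster, had 3 and 2 reads at stage 26 and none at stage 11.5.

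Outside the family, 3 rows held AAGTGC within their first 9 bases, miR-427, miR-428 and miR-302. miR-427 was called lower at stage 26 both after TMM scaling (log2 -5.52, SE 0.1001, limma adjusted p = 7.64e-06) and in deposited CPM. miR-428 had 5097 and 4489 CPM at stage 26, against 1720 and 2269 CPM at stage 11.5, and its direction turned with the scaling. It did not pass after TMM scaling (log2 -0.69, limma adjusted p = 0.157), was called higher in deposited CPM (log2 1.25, limma adjusted p = 0.0306) and lower with miR-427 left out of the total (log2 -1.31, limma adjusted p = 0.0394). Its bases 2 to 8 are those of miR-93a as listed (AAGTGCT), and its CPM was below that of miR-93a in all 4 libraries. miR-302 had 1 read in all.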

How the data were processed

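The deposited table gives CPM per miRNA and library; the authors scaled each library to 1000000 over the listed miRNAs, as the values show. Libraries were made with the SREK kit, per the labels' protocols. No aligner, miRNA database release or sequencer is named in the sources used here, and genomic positions were not used. Reads were recovered by dividing each column by its smallest nonzero value (100% whole within 1e-06), a step that rests on 98 rows.

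Stage 26 over stage 11.5 was fitted with limma 3.58.1 in R 4.3.3, the prior variance following the mean. Values were TMM-scaled CPM with a pseudocount of 50 CPM, on the log2 scale, for all miRNAs with at least 10 reads at the median depth (277 CPM) in 2 libraries and 15 reads in total, with Benjamini-Hochberg adjustment. TMM trimmed 30% of M values and 5% of A values. The fit was also run on simulated tables with known changes, as many up as down and none as large as that of miR-427. These tables therefore do not test the scaling under a shift of that size. Shares have exact binomial (Clopper-Pearson) intervals. The planned count tests were not run, because the deposited values are CPM and 98 rows were judged too few to check the recovery of reads. The recovered reads were still used for the TMM factors, the filter, the shares and the voom fit, which rest on that recovery. Named were every family row, the 3 nearest profiles of each, and from the partner and related seed lists the highest row and the calls. miR-25, miR-302 and the calls under other scalings were named after their values were seen. Members and lists were chosen with earlier results of these data known. Figures used matplotlib 3.10.9.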

Additional observations from a re-analysis of the deposited data

How the results depend on the processing

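After TMM scaling no family row was called; the counts of calls moved with the scaling, to 3 higher in deposited CPM and 2 lower with miR-427 left out of the total. They also moved to 2 lower with a crossed replicate block and 2 lower with voom weights, both added after seeing the data, and lay between 0 and 1 higher with 1 library left out. The replicate block on the letters a and b gave no call (miR-93a log2 -1.61, limma adjusted p = 0.0643); same-letter deviations correlated at -0.275 over the 52 tested miRNAs, and at 0.253 without the family and miR-92a. Of the 52 tested miRNAs, 20 were called higher and 11 lower, against 19 and 10 with the block and 22 and 14 with the crossed one. With voom weights 20 of the 52 were called higher and 13 lower. The number tested changed with the filter. When a mean of 100 CPM was required, 66 were tested, 30 called higher and 13 lower. With no filter 98 were tested, 34 called higher and 14 lower. The planned edgeR and DESeq2 fits were not run.

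Log2 fold changes turned sign in deposited CPM for miR-17-5p (1.89), miR-20b (0.95), miR-93a (0.35) and miR-93b (0.35), with relative log expression factors for miR-17-5p (0.15), with miR-427 left out for miR-20a (-0.12) and miR-106 (-0.48), and for miR-106 without miR-92a, miR-20b and the miR-93 rows (-0.051). With 1 library left out they ranged from -0.16 to 0.036 for miR-17-5p, -0.019 to 0.33 for miR-106, 0.023 to 1.0 for miR-20a and -2.17 to 0.19 for miR-20b. In deposited CPM these ranges were -0.30 to 2.21 for miR-20b, -0.57 to 1.27 for miR-93a and -0.56 to 1.26 for miR-93b, and with miR-427 left out -0.44 to 0.20 for miR-20a and -2.64 to -0.62 for miR-20b. The difference in family share, stage 26 minus stage 11.5, was 7.58 percentage points of all reads, but -16.0 without miR-427 and -16.5 with miR-302, miR-367 and miR-428 also left out. Without miR-427 it moved to -5.999 with miR-20b and the miR-93 rows out of the sum; counting both nested rows changed neither direction. The stage difference in the within-family share of miR-17-5p, 9.81 points, ranged from -5.58 to 25.2 with 1 library left out and was -4.45 without miR-20b and the miR-93 rows; that of miR-20b, -9.97, ranged from -22.1 to 2.15. Their causes were not tested. At stage 11.5 depth limits the low rows, with 30 reads behind the lowest family value.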
